A study of Mus musculus with 18 samples.

Results

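Paneth cells sit at the base of the small intestinal crypts and release granules of antimicrobial proteins into the lumen. The granules hold lysozyme, alpha-defensins, angiogenins, the lectin intelectin and a secreted phospholipase A2, and the metalloproteinase matrilysin cuts pro-defensins into their active form. The genes described here are the 10 of a list of such products, namely Lyz1, Mmp7, Ang4, Itln1, Pla2g2a, Defa3, Defa5, Defa17, Defa22 and Defa24, and they were looked up on the array by gene name, taking all non-control probes that carried it. Probes were found for 7 of the 10 genes, 10 probes in all, of 56605 probes under 37074 names on the array. Defa5, Defa17 and Defa22 had 0 probes by name and 0 by RefSeq accession and were not analysed here. All 10 member probes were well above background on 18 of 18 arrays, and none was saturated.

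Epithelial cells of the ileum were collected from mice of the genotypes iPGC1afl/fl and iPGC1a-/-, the latter lacking the coactivator Pgc1α in the intestine through a Cre recombinase under the villin promoter, which is active across the intestinal epithelium. Feeding started at 8 weeks of age and lasted 8 weeks, with either CHOW or HFD, a Western-type diet with 42% of its kcal from fat and 0.2% cholesterol, and tissue was taken at ZT 3. The groups were iPGC1afl/fl on CHOW, iPGC1afl/fl on HFD and iPGC1a-/- on HFD, each with 6 arrays of separate C57BL6/J mice, the iPGC1afl/fl mice being littermates, and iPGC1a-/- mice on CHOW were not analysed here. Cells had been released from the ileum by chelation, so a lower signal of a Paneth cell gene cannot be told apart from fewer Paneth cells in the preparation. Signal is given as normalized log2 intensity, values are compared within a probe only, and limma, with an adjusted p of at most 0.05 and a fold change above 1.5 at 1 or more probes, decided whether a gene counted as changed.

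The arrays were of even quality, with 54.3% to 60.6% of probes well above background, and the arrays of a group correlated at r of 0.987 to 0.997. The slides were 3, each with 2 arrays of every group. The 2 probes of Ppargc1a, the targeted gene, begin at bases 2473 and 2964 of its transcript, and their place relative to the deleted exons was not determined, so they do not check the deletion. The brighter averaged 11.38 ± 0.07 (SD, n = 6) in iPGC1afl/fl mice on HFD and 11.67 ± 0.26 in the arrays labelled iPGC1a-/- (log2 difference 0.30, adjusted p = 0.572), so directions by genotype rest on the labels. In the iPGC1afl/fl arrays on HFD, replicate 1 was the highest for 5 of the 7 genes, and in those on CHOW replicate 4 was the lowest for 6 of 7 and replicate 6 the highest for 6 of 7. In the arrays labelled iPGC1a-/-, replicate 1 was the highest for 6 of 7. Values without these arrays are given where they moved a call, a direction or a size.

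The diet question is which Paneth cell antimicrobial transcripts differed between iPGC1afl/fl mice on HFD and on CHOW. Pla2g2a and Mmp7 fell on HFD, whereas the bulk granule products Lyz1, Defa3 and Defa24 differed by less than 0.01 on the log2 scale at their brightest probes. Ang4 averaged higher on HFD without passing the test. Of the 7 genes, 2 passed both thresholds, both lower, against 9.1% of all 21542 gene names in either direction, 5.58% lower and 3.53% higher. At an unadjusted p of 0.05 it was 3 of 7, against 41.4% of all gene names.

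Pla2g2a encodes the group IIA secreted phospholipase A2, a bactericidal enzyme whose gene carries a frameshift in C57BL/6 mice, and the RefSeq gene table (GRCm38.p6), matched by symbol, gives it as a transcribed pseudogene. Its probe lies at chr4:138390766-138390825 (mm9, plus strand), from base 435 of the transcript, and its first 39 bases are shown because this was the member with the largest diet difference:
Pla2g2a probe: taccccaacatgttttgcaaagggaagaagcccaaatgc
On CHOW its log2 signal ranged from 8.66 to 9.64 with a median of 9.23, and on HFD from 7.90 to 9.002 with a median of 8.04. In all, 5 of 6 HFD arrays were below the lowest CHOW array, and replicate 1 was not. The log2 difference was -0.97 (SE 0.21, 95% interval -1.40 to -0.54, adjusted p = 0.00172), a 1.96-fold lower signal on HFD. Within the 3 slides the difference was -1.05, -0.78 and -1.08 with 2 arrays against 2 in each. Without replicate 1 of HFD and replicate 4 of CHOW it was -1.09 (adjusted p = 0.00055).

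Mmp7 encodes matrilysin, the enzyme that activates mouse alpha-defensins. Its 2 probes lie on chr9 of mm9, plus strand, the brighter at chr9:7699476-7699535 and the dimmer at chr9:7697641-7697700, from bases 958 and 690 of the transcript. The dimmer is shown because both Mmp7 probes passed the test:
Mmp7 probe: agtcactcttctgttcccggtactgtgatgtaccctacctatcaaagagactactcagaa
The brighter probe ranged from 12.67 to 13.32 on CHOW (median 12.93) and from 11.72 to 13.41 on HFD (median 12.14). Here too 5 of 6 HFD arrays were below every CHOW array, while replicate 1, at 13.41, was above them all. The log2 difference was -0.69 (SE 0.24, 95% interval -1.19 to -0.18, adjusted p = 0.0449), 1.61-fold lower, and at the dimmer probe -0.77 (SE 0.25, adjusted p = 0.0302). The adjusted p of the brighter probe lay near the threshold and missed it in 6 of 14 other settings and in 10 of 18 fits that left out a single array, with differences of -0.91 to -0.58 in the latter. Counting either probe, Mmp7 was not called without CHOW replicate 1, 3 or 6, or without iPGC1afl/fl HFD replicate 2, 3 or 6. Within slides it was -1.05, -0.30 and -0.71, and without HFD replicate 1 and CHOW replicate 4 together -0.97 (adjusted p = 0.00245).

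**Figure D1:**
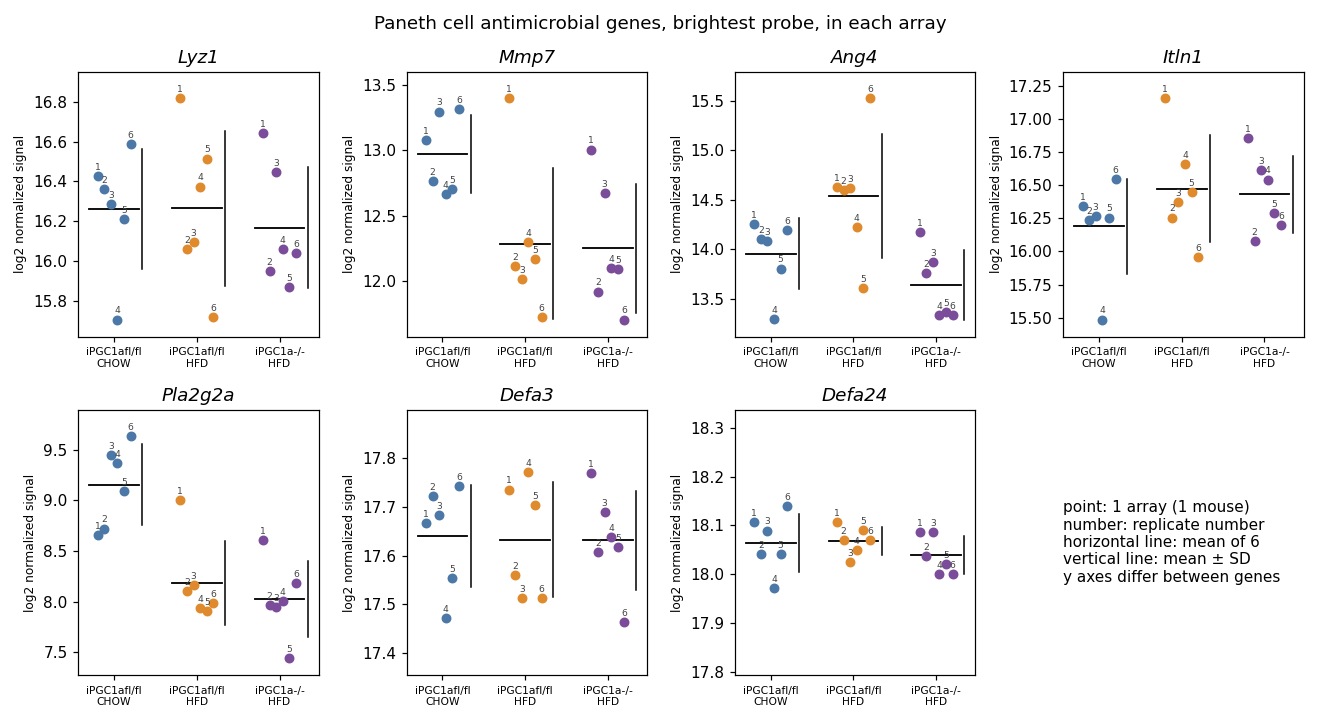
Normalized log2 signal (y axis, its own scale for each gene) of the brightest probe of 7 Paneth cell antimicrobial genes in the 3 groups of 6 arrays. Points are arrays with their replicate numbers, horizontal lines are means and vertical lines are mean ± SD. For Pla2g2a and Mmp7, 5 of 6 iPGC1afl/fl arrays on HFD lie below all CHOW arrays, and replicate 1 lies apart from them.

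Ang4 encodes angiogenin 4, a bactericidal ribonuclease of mouse Paneth cells. Its probe lies at chr14:52384066-52384125 (mm9, minus strand), from base 136 of the transcript, and is shown because this gene had the largest difference between genotypes:
Ang4 probe: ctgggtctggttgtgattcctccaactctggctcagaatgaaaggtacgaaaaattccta
On CHOW the signal ranged from 13.29 to 14.25 (median 14.09), and on HFD from 13.61 to 15.53 (median 14.61). The groups overlapped, with replicate 6 of HFD far above the rest and replicate 5 the lowest of its group. The log2 difference by diet was 0.58 (SE 0.24, 95% interval 0.09 to 1.08, adjusted p = 0.0838) and did not pass. Among fits with a single array left out, it was called higher only without replicate 5 of HFD (0.77, adjusted p = 0.0148), and it was 0.38 (adjusted p = 0.206) without replicate 6 of HFD. Within slides it was -0.07, 0.63 and 1.18.

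Itln1 encodes intelectin 1, a lectin that binds microbial glycans. The brighter probe lies at chr1:173448282-173448341 (mm9, minus strand), and the dimmer carries no position in the files. The dimmer is shown with, in capitals, the 24 bases it shares with a probe of LOC102642530, the longest run it shares with any probe of another name, so the genes behind this signal are uncertain:
Itln1 probe: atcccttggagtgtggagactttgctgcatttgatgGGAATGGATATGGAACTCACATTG
The brighter probe ranged from 15.49 to 16.54 on CHOW and from 15.96 to 17.16 on HFD, overlapping throughout. The log2 difference was 0.29 at both probes, with adjusted p of 0.281 and 0.483. At the brighter it was 0.15 without CHOW replicate 4, 0.15 without HFD replicate 1 and 0.0089 without both.

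Lyz1 encodes the Paneth cell lysozyme, which cleaves bacterial peptidoglycan, and its probe lies at chr10:116724862-116724921 (mm9, minus strand). It ranged from 15.71 to 16.59 on CHOW and from 15.72 to 16.82 on HFD, and the groups covered nearly the same interval. The log2 difference was 0.0015 with a 95% interval of -0.36 to 0.37, so a change of up to about that size could not be told from 0 here.

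Defa3 and Defa24 are alpha-defensins, small cationic peptides that permeabilize bacterial membranes. The Defa3 probes overlap each other at chr8:22427934-22427993 and chr8:22427899-22427958, and the Defa24 probe lies at chr8:22845881-22845940 (mm9, plus strand). The family is a cluster of near-identical copies, and a Defa3 probe is printed beside a Defa1 probe because that likeness bounds what the values can say. Capitals mark the bases that differ in their 56 shared positions:
Defa3 probe: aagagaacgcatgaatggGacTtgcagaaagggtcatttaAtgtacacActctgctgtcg
Defa1 probe: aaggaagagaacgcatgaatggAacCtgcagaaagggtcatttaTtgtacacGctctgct
The 4 differences, counted from 1 at the 5′ end of the Defa3 probe and written with the Defa3 base first, are G19A, T22C, A41T and A49G. Another probe, Gm15292 (Defa40 in RefSeq), shares an unbroken run of 35 bases with this Defa3 probe, and Defa23 shares 35 with the Defa24 probe. The defensin signals are therefore signals of groups of copies, with the share of each copy unknown.

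The brightest Defa3 probe ranged from 17.47 to 17.74 on CHOW and from 17.51 to 17.77 on HFD. The log2 difference was -0.0073 (95% interval -0.16 to 0.15), and at the dimmer probe 0.09 (-0.12 to 0.29). Defa24 ranged from 17.97 to 18.14 on CHOW and from 18.02 to 18.11 on HFD, with a difference of 0.0033 (-0.11 to 0.12). These intervals hold only on the normalized scale, because the unnormalized Defa24 signal, 235852 to 330109, was at or above the 99.98th percentile of probes on every array and quantile-based normalization leaves little room for movement there. Scaling the same signal by the 75th percentile of each array instead gave a Defa24 difference of 0.19 (adjusted p = 0.41), also not called.

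Across all alpha-defensin probes, 27 for 20 array names, the spread between arrays depended on the signal of the probe. The median SD within groups was 0.15 for the 12 probes at a mean log2 signal of 17 and above, 0.38 for the 10 between 15 and 17, and 0.55 for the 5 below 15. Over all probes in these bands it was 0.08, 0.15 and 0.18, so a lower spread at bright probes is not particular to defensins. The dimmest defensin probe, Defa-rs2 at 5.29, had an SD of 0.22. The diet differences ran from -0.50 to 0.09 and were below 0 at 19 of 27 probes. None of the 18 other alpha-defensin genes passed the test in either comparison, and 0 had an unadjusted p under 0.05 in limma. By RefSeq accession 20 of the 27 probes matched a current gene, of which 9 carried another symbol on the array.

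**Figure D2:**
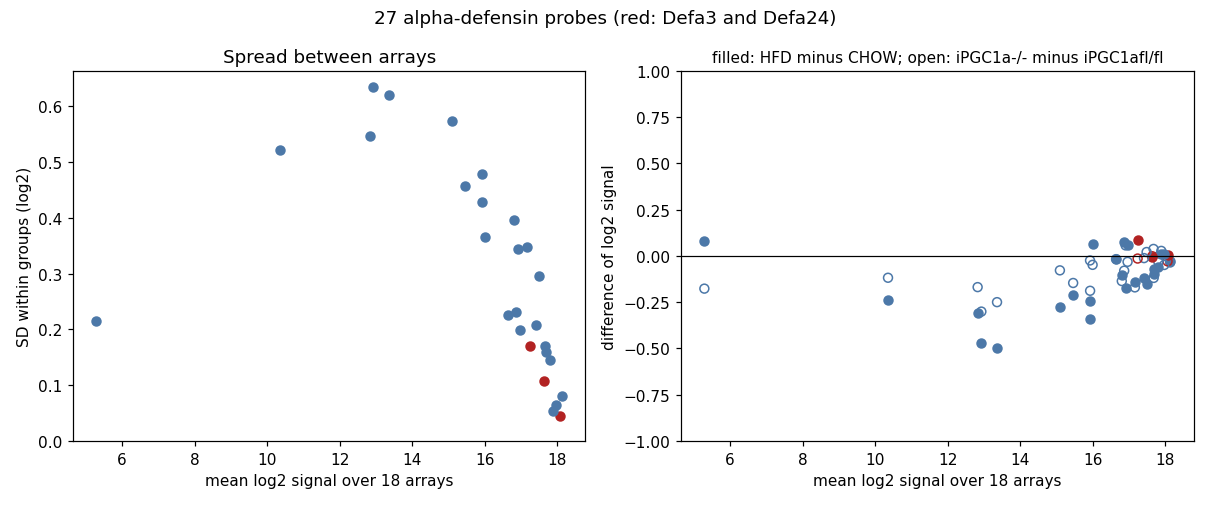
Left, SD within groups (y axis, log2) against the mean log2 signal over 18 arrays (x axis) for 27 alpha-defensin probes, with Defa3 and Defa24 in red. Right, the log2 differences of the same probes, filled for HFD minus CHOW and open for iPGC1a-/- minus iPGC1afl/fl. Spread and differences are smallest at the brightest probes, and the diet differences lie between -0.50 and 0.09.

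The genotype question is whether these transcripts differed between iPGC1a-/- and iPGC1afl/fl mice on HFD. Of the 7 genes, 0 passed both thresholds in limma, against 0.162% of all gene names (0.0882% higher and 0.0743% lower), and 1, Ang4, had an unadjusted p under 0.05, against 13% of all gene names. Ang4 in the arrays labelled iPGC1a-/- ranged from 13.33 to 14.17 with a median of 13.56, and all 6 were below the median of iPGC1afl/fl arrays on HFD, 3 of them below its lowest array. The log2 difference was -0.89 (SE 0.24, 95% interval -1.39 to -0.40, adjusted p = 0.199), 1.86-fold lower. Within slides it was -0.54, -1.29 and -0.85. Among fits with a single array left out, it was called lower only without replicate 5 of iPGC1afl/fl on HFD (-1.08, adjusted p = 0.0341), and it was -0.69 (adjusted p = 0.433) without replicate 6 of that group.

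Pla2g2a ranged from 7.44 to 8.61 in iPGC1a-/- mice (log2 difference -0.16, 95% interval -0.59 to 0.27) and Mmp7 from 11.70 to 13.01 (-0.04, -0.54 to 0.47). For these, Lyz1 (-0.10, -0.46 to 0.27) and Itln1 (-0.04, -0.43 to 0.34), the groups overlapped and the intervals leave room for moderate change in either direction. At the dimmer Mmp7 probe the difference was above 0 with all arrays in (0.07, 95% interval -0.45 to 0.59). All 7 brightest probes had a difference below 0, but 5 of the 7, Ang4 and Defa24 being the others, lay above 0 once replicate 1 of iPGC1afl/fl on HFD was left out. Without replicate 1 of iPGC1a-/- all 7 stayed below 0, with -0.19 for Lyz1, -0.19 for Mmp7, -0.13 for Itln1, -0.27 for Pla2g2a and -1.001 for Ang4, and none was called. In neither comparison did the groups of any of the 7 genes separate without overlap, as they did for 5.31% of all genes lower and 5.09% higher by diet, and for 0.643% lower and 0.312% higher by genotype.

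**Figure D3:**
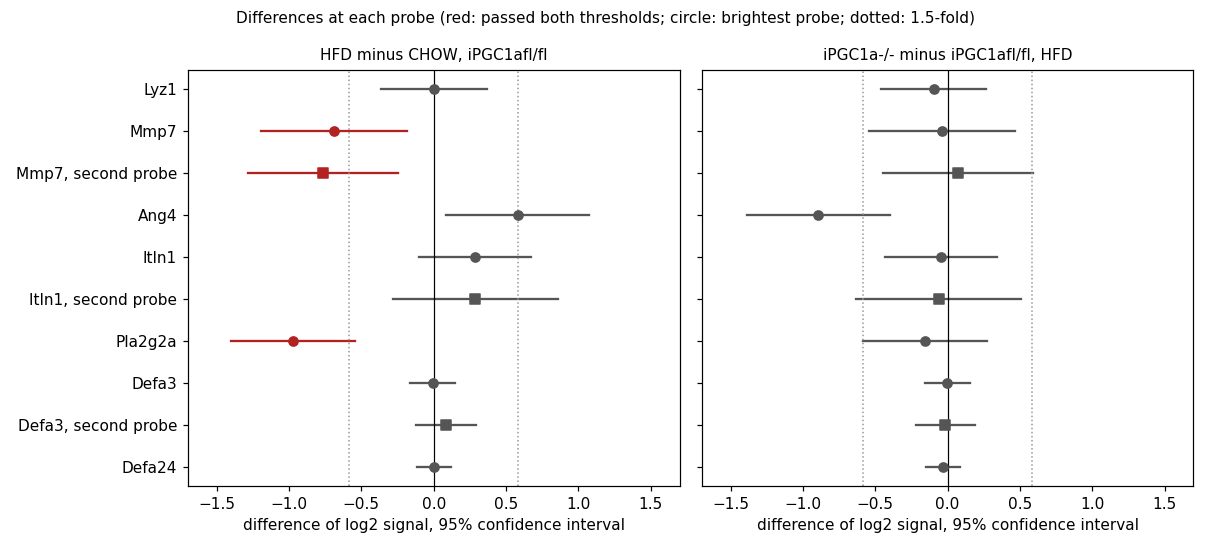
Differences of log2 signal (x axis) with 95% confidence intervals at the 10 member probes (y axis), HFD minus CHOW in iPGC1afl/fl mice on the left and iPGC1a-/- minus iPGC1afl/fl on HFD on the right. Red marks the 3 probes past both thresholds, circles the brightest probe of a gene, squares the dimmer and dotted lines a 1.5-fold difference. Pla2g2a and both Mmp7 probes lie left of the dotted line by diet, and Ang4 by genotype without passing.

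The genes varied together from array to array. After each group's mean was subtracted, the 21 pairs of genes correlated with r of 0.08 to 0.93 over the 18 arrays (median 0.63), as a description of arrays that share their libraries and normalization. Lyz1 and Itln1 were the closest pair, and the pairs of probes for Mmp7 and Itln1 correlated at 0.96. Ang4 stood apart, with r of 0.08 to 0.47 to the others, and Pla2g2a was closest to Mmp7 (0.63).

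The genes outside the list most like its mean pattern over 18 arrays were 5830408B19Rik (r = 0.95), Svep1 (0.95), 1810010D01Rik (0.94), Habp2 (0.94) and Gm34396 (0.93). With group means subtracted, Gm15292 (0.95) took the place of Gm34396. Among single genes, Lyz1 was closest to its near-identical copy Lyz2 (0.98), and Pla2g2a to its neighbour in the same gene family, Pla2g2f (0.92). The Lyz2 value is that of its brighter probe, which averaged 15.19 on CHOW, where its dimmer probe averaged 6.50. Whether the brighter probe also reads Lyz1 transcripts was not determined.

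**Figure D4:**
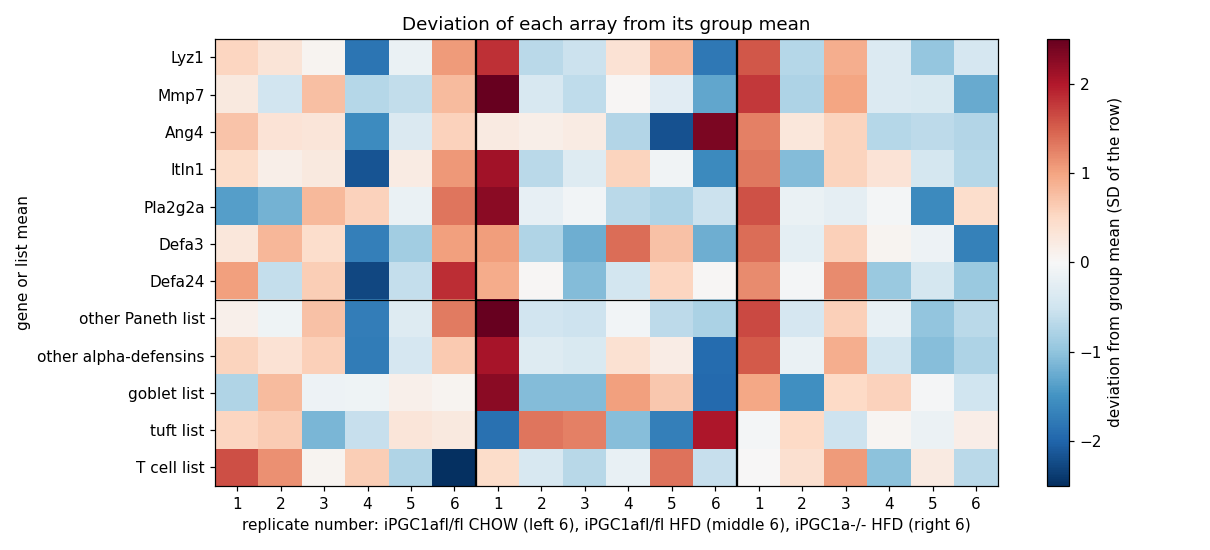
Deviation of each array from its group mean, in SD of the row (colour), for 7 member genes and the means of 5 marker lists (rows) in 18 arrays (columns, replicate numbers, groups divided by black lines). Replicate 1 of both HFD groups is high and replicate 4 of CHOW low across most members and the other Paneth cell lists. In iPGC1afl/fl on HFD, Ang4 in replicates 5 and 6 goes with the tuft list.

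Lists of markers were read beside these values. By diet 54 of 159 genes of the 14 other lists were called, against 9.1% of all gene names. Of 23 other Paneth cell products tested, 2 rose on HFD, Pnliprp2 (0.68, adjusted p = 0.0186), a pancreatic lipase-related protein, and Reg4 (0.85, adjusted p = 0.0244), a lectin. In the same list 3 fell, the pentraxin genes Mptx1 (-0.77, adjusted p = 0.0242) and Mptx2 (-0.89, adjusted p = 0.0442) and Dmbt1 (-1.91, adjusted p = 7.3e-07), a bacteria-binding scavenger receptor also made by other epithelial cells. The list's median difference was 0.0021, beside 0.0031 over all genes. Its other two brightest genes, Guca2a (0.48, adjusted p = 0.0002), which passed on p and not on fold, and Ang6 (0.46, adjusted p = 0.156), an angiogenin close to Ang4, were not called.

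Of 24 regulators of Paneth cell formation and function, 5 fell on HFD and 1 rose. Gfi1 (-1.32, adjusted p = 0.00011) and Atoh1 (-0.72, adjusted p = 0.0151), transcription factors of the secretory lineage, fell, as did Irgm1 (-0.78, adjusted p = 0.00211), a GTPase of autophagy, and Nod2 (-0.64, adjusted p = 0.00029), a sensor of bacterial peptidoglycan whose probe was well above background on 3 of 6 HFD arrays. Tcf7l2, the Wnt effector of the crypt, was called at a dimmer probe (-0.59, adjusted p = 0.0104), its brightest giving -0.58 (adjusted p = 2.74e-05), just short of the fold threshold. Creb3l2, a factor of the secretory pathway, rose (0.79, adjusted p = 0.00803). The list's median difference was -0.31.

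Antimicrobial genes of the wider epithelium moved further. Of 16 tested, 10 fell on HFD, among them Reg3g (-2.49, adjusted p = 2.8e-05) and Reg3b (-1.90, adjusted p = 0.000127), lectins that kill bacteria, and Saa1 (-4.92, adjusted p = 4.3e-09), an acute-phase protein. Pigr counted among the 10 at its dimmer probe (-1.83, adjusted p = 1.61e-08) and not at its brightest (-0.19, adjusted p = 0.174). Saa3 (-1.74, adjusted p = 0.000564) had a probe well above background on 2 of 6 iPGC1afl/fl arrays on HFD. Reg3a alone rose (1.25, adjusted p = 0.000841). The list's median difference was -0.85, beside 0.0015 for the 7 Paneth cell genes.

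Markers of other cells moved with the diet as well. All 8 T cell markers fell, with a summed signal of 12970.2 to 46809 on CHOW and 5250.3 to 9737 on HFD, as did 5 of 6 B and plasma cell markers (1643 to 4542 and 225 to 1318), 6 of 8 goblet cell markers (322645 to 423874 and 164409 to 345102) and 5 of 10 proliferation genes. Of macrophage and stromal markers 0 of 5 and 0 of 5 were called, with 1 and 0 at an unadjusted p under 0.05. The 1 was Cd68 (-0.31, adjusted p = 0.0269), which passed on p and not on fold. The macrophage list also holds Lyz2, the copy of Lyz1 named above. Of 8 stem cell markers Smoc2 was called lower, at its dimmest probe (-0.67, adjusted p = 0.000597) and not at its brightest (-0.17). Of 12 enterocyte markers 3 rose, Alpi (0.90), Fabp1 (0.88) and Apoa4 (0.98), and the bile acid transporter Slc10a2 fell (-1.07). Of 10 enteroendocrine markers the peptide gene Nts rose (0.98) and Chga fell (-0.80), and of 6 tuft markers Trpm5 fell (-0.63). The part of these shifts in the lower Pla2g2a and Mmp7 was not tested. Within groups, Mmp7 correlated with the goblet mean at r = 0.70 and with the T cell mean at 0.10, and Pla2g2a at 0.38 and -0.38. Members not called by diet gave 0.72 (Lyz1), 0.74 (Itln1), 0.68 (Defa3), 0.21 (Defa24) and -0.32 (Ang4) with the goblet mean. With the mean of other Paneth cell products, Mmp7 correlated at 0.92 and Pla2g2a at 0.67.

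By genotype 0 of 159 genes of the 14 other lists were called in limma, against 0.162% of all gene names. At an unadjusted p under 0.05 it was 16 of 159, against 13% of all gene names. Some lists lay on 1 side of 0. All 8 T cell markers and all 6 B and plasma cell markers had a difference above 0, with medians of 0.24 and 0.34. All 6 tuft cell markers tested had a difference below 0, with a median of -0.55, and a summed signal of 1615 to 4745 in iPGC1afl/fl and 1611 to 2042 in iPGC1a-/- mice on HFD. Within groups Ang4 correlated with the tuft mean at r = 0.57, where the other 6 members gave -0.56 to -0.18. It also correlated with the proliferation mean at -0.57, the stem cell mean at -0.43 and the mean of other Paneth cell products at 0.41. Replicate 6 of iPGC1afl/fl on HFD was the highest of its group in Ang4 and in the tuft mean. It deviated from the group mean by 0.996 and 0.77, and replicate 5 of that group by -0.93 and -0.65. The 2 did not move together in its replicate 1 (0.09 and -0.71) or in replicate 1 of iPGC1a-/- (0.54 and -0.02). How far the r rests on replicates 5 and 6 was not tested. The part of tuft cells in the Ang4 difference was not tested.

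The promoters that RefSeq gives on GRCm38.p6, spanning each start site, were searched on both strands for CTTTGAT, a core site of the TCF/LEF factors, which are known to act on Paneth cell defensin genes. It was present in 13 of 16 alpha-defensin promoters, which are near-copies of each other, against 3.73% of 32851 promoters. The Defa22 stretch is shown with both CTTTGAT matches, read here as ATCAAAG, and the TATAAA match in capitals (chr8:21162155-21162261, plus strand):
Defa22 promoter: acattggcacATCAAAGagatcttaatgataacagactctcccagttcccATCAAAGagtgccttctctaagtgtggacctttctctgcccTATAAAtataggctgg
The matches begin 112, 72 and 31 bases before the start site. Mmp7 has RefSeq entries for a pair of start sites whose windows overlap, and both hold the same CTTTGAT match, 4 bases after the upstream start site, while Lyz1, Ang4 and Itln1 held 0. A match is a description of letters only.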

How the data were processed

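RNA of ileal epithelial cells was hybridized to one-colour Agilent SurePrint G3 Mouse GE v2 arrays and, per the labels, the submitters' processing notes among them, read with Feature Extraction 10.10.1.1, with probe positions on mm9. The deposited values are scanner intensities (median signal per spot), and the authors also deposited a table of normalized log2 values for 33095 probes, which was used as an alternative only. Groups were taken from the labels. Here the median intensity was put on the log2 scale, control and outlier spots were left out, and a probe was kept if, in any group, 5 or more of the 6 arrays read it well above background (32726 of 56605). The arrays were normalized with a re-implementation of qsmooth (window 0.05), a quantile method that keeps differences between groups, and fitted with limma 3.58.1 in R 4.3.3 as 3 groups with Benjamini-Hochberg adjustment over all probes kept. The brightest probe stands for a gene. Washing and labelling batches were not given in the labels used here and were not modelled. The number of arrays limits the precision. In simulated data with known changes of 0.75, 1 and 2 on the log2 scale, the diet fit recovered 82.1%, 94% and 100% of changed probes. The changed probes were drawn at random and the noise independently for each probe, so these shares do not carry over to the members. The median SE by diet over the probes kept was 0.10, against 0.21 for Pla2g2a and 0.24 for Ang4 and Mmp7. The genes named are all members, and from other lists called genes, defining genes or the 3 brightest, and the 5 genes most like the members. The members, lists and tests were chosen with earlier results of these data known. Promoter and gene names came from RefSeq (GRCm38.p6), where 7 of 10 member probes matched by accession.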

Additional observations from a re-analysis of the deposited data

Results flagged for a closer look

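In 4 of the 30 sets of 6 arrays (10 probes in 3 groups), the highest or lowest array stood off from the nearest by a larger part of the range than Dixon's 95% limit, which chance passes in about 1 of 20 sets. They came from the same 2 arrays. In replicate 1 of iPGC1afl/fl on HFD, the brightest Mmp7 probe read 13.41 against 12.29 for the nearest array, and Pla2g2a 9.002 against 8.16. In replicate 4 of iPGC1afl/fl on CHOW, the brightest Itln1 probe read 15.49 against 16.24, and the dimmer Defa3 probe 16.86 against 17.21.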

How the results depend on the processing

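The diet count of 2 genes stayed at 2 in 15 of 16 other settings and was 1, Pla2g2a, at an adjusted p of 0.01. Leaving out single arrays gave 1 to 3, losing Mmp7 without CHOW replicates 1, 3 or 6 or iPGC1afl/fl HFD replicates 2, 3 or 6, and adding Ang4 without HFD replicate 5. The genotype count of 0 stayed at 0 in 16 of 16 settings and was 0 to 1 with single arrays left out. Pla2g2a was called in every setting, from -1.14 to -0.88. Small differences changed sign. For Defa3 by diet they were 0.077 and 0.093 with processed and median signal scaled to the 75th percentile, 0.013 with array weights and 0.039 with probes averaged. By genotype Defa3 gave 0.022 with normexp, 0.0018 with quantile, 0.0035 with the authors' log2 values and 0.0071 with array weights, and Mmp7 0.019 with array weights and 0.018 with probes averaged. With HFD replicate 1 and CHOW replicate 4 left out together, chosen after seeing the data, Lyz1 gave -0.22 and Defa24 -0.023 by diet, and by genotype Lyz1 gave 0.015, Mmp7 0.19, Itln1 0.093, Pla2g2a 0.0069 and Defa3 0.019. With single arrays left out, the diet ranges were -0.11 to 0.11 for Lyz1, -0.041 to 0.017 for Defa3 and -0.015 to 0.018 for Defa24. The genotype ranges were -0.20 to 0.015 for Lyz1, -0.19 to 0.19 for Mmp7, -0.15 to 0.093 for Itln1, -0.27 to 0.0069 for Pla2g2a and -0.029 to 0.031 for Defa3. The cause was not tested. Same-numbered arrays correlated with r of -0.13 to 0.28 (diet) and -0.19 to 0.33 (genotype). Arrays with other numbers gave -0.31 to 0.24 and -0.36 to 0.44. Of 6 arrays, 3 (diet) and 2 (genotype) correlated best with their own number, so these values do not settle whether numbers pair the mice. With the replicate block the counts were 2 and 0. The block changed no call, and Ang4 by diet kept its 0.58 with an adjusted p of 0.0317, short of the fold threshold. By genotype Ang4 kept its -0.89 with an adjusted p of 0.092 in limma.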
